A study of Mus musculus with 12 samples.

Results

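The 9 genes described here encode receptors and adhesion molecules that keep blood stem cells in the bone marrow or bring them back to it: the chemokine receptor gene Cxcr4, the integrin subunit genes Itga4, Itga6, Itgal, Itgb1 and Itgb2, the adhesion receptor genes Selplg and Cd44, and the integrin ligand gene Vcam1. They were taken by symbol from a deposited RNA-seq table of 28999 genes, in which each symbol stood on 1 row, and all 9 passed the filter on low counts that kept 16319 genes. The 12 libraries came from mouse bone marrow cells labelled long-term haematopoietic stem cells (LT-HSCs), 3 in each of 4 groups: Trim47-/- after 5-FU, wild type after 5-FU, Trim47-/- untreated and wild type untreated. The Trim47 product is a ubiquitin ligase of the TRIM family, and 5-FU is 5-fluorouracil, which kills dividing cells; the labels of the treated groups state 10 days. The design compares the genotypes at rest and after the drug, and the drug response between the genotypes. The sources used here do not give which part of Trim47 was deleted, how the LT-HSCs were gated, or the strain and age of the mice.

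CXCR4 senses the chemokine CXCL12 made by marrow stroma, and its signalling holds stem cells in place and guides injected cells to the marrow. Integrins are pairs of an alpha and a beta subunit that bind ligands on neighbouring cells or in the matrix once they are activated from inside the cell. Selectins and hyaluronan on marrow vessels and stroma catch rolling cells through PSGL-1, the product of Selplg, and through CD44.

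Of the 9 genes, Cxcr4 had the largest genotype difference in untreated cells and Cd44 the largest after 5-FU, so the 250 bases before their RefSeq starts (GRCm38.p6) are shown, read 5′ to 3′ on the minus strand, which is the strand of both genes. The Cxcr4 window lies at chr1:128592300-128592549 and the Cd44 window at chr2:102901666-102901915. Capitals mark each match, on either strand, to 1 of 3 motifs searched: the GC box, spelled GGGCGG, the core of the hypoxia response motif, which is ACGTG, and the GATA motif, for which the longer form AGATAA was used.
Cxcr4: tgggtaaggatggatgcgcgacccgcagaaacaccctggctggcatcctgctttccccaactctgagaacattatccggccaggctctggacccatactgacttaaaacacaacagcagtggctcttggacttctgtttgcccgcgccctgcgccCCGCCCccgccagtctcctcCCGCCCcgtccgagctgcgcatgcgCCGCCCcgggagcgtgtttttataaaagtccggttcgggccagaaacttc
Cd44: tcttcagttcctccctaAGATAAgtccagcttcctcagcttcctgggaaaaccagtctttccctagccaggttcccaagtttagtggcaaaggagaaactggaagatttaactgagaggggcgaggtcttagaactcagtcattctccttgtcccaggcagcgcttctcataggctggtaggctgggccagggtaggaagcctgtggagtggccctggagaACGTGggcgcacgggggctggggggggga
The Cxcr4 window held 3 GC boxes, all read as CCGCCC, that begin 95, 75 and 50 bases before the start. At least 1 GC box was found in 32.9% of 27025 promoter windows of this length, and the share with 3 is not given here. No GC box lay in the Cd44 window, which had 1 hypoxia response core beginning 29 bases before the start and 1 GATA motif at 233 bases, found in 16.6% and 10.3% of all windows. No marked match overlapped another. The G and C content was 61.2% in the Cxcr4 window and 56.4% in the Cd44 window, against a median of 52.0% over all windows. Promoter windows for Itga4 and Itgb1 were also in the table; each held 1 GC box. These matches describe letters in the windows, and no binding was measured.

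Total counts were 13919649 to 13953510 in Trim47-/- after 5-FU, 15111811 to 15151589 in wild type after 5-FU, 20661120 to 20703198 in untreated Trim47-/- and 14828152 to 14885673 in untreated wild type. Levels are given as CPM, counts relative to a TMM-scaled library size. The labels name no separate animals, so the spread behind every p-value is that between libraries and may be technical. Trim47 RNA was 10.1 to 12.2 CPM in Trim47-/- against 33.3 to 38.1 CPM in wild type after 5-FU, and 16.6 to 23.7 CPM in Trim47-/- against 23.8 to 24.7 CPM in wild type untreated. The untreated difference did not pass (log2 -0.31, SE 0.115, adjusted p = 0.0632 in edgeR's quasi-likelihood test), so Trim47-/- below names the label of a library.

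All 10 LT-HSC markers, such as Procr, Slamf1, Mecom and Hlf, were present in every group above 1 CPM on average. Their sum was 569.8 to 652 CPM in Trim47-/- after 5-FU and 931 to 1090.0 CPM in wild type after 5-FU, against 938 to 1044 CPM in untreated Trim47-/- and 848 to 952 CPM in untreated wild type. Kit alone made up 46.5% to 52.4% of this sum in the groups. After 5-FU, 9 of the 10 were lower in Trim47-/- than in wild type and none was higher in edgeR's test. The 11 neutrophil and granule genes, led by Mpo, summed to 5779 to 6170.0 CPM in Trim47-/- and 3627 to 3717 CPM in wild type after 5-FU, and all 11 were higher in Trim47-/-. The 11 monocyte and macrophage genes summed to 715 to 743 CPM in Trim47-/- and 354 to 357 CPM in wild type after 5-FU, with 7 of 9 tested higher in Trim47-/- and C1qa, C1qb and C1qc under 1 CPM in both. In untreated cells the monocyte sum was 269.8 to 294 CPM in Trim47-/- and 429 to 444 CPM in wild type. The untreated neutrophil sum was 3016 to 3058 CPM in Trim47-/- and 2980 to 3111 CPM in wild type. Mpo made up 57.0% of it in Trim47-/- and 62.0% in wild type. Of the 11 neutrophil and granule genes, 6 were called higher and 2 lower in untreated Trim47-/-. Of the 9 monocyte genes tested, 4 were lower and none was higher there. Among all tested genes, 33% were called untreated. The 7 B-cell markers summed to 50.5 to 82.6 CPM in Trim47-/- and 65.4 to 120.5 CPM in wild type after 5-FU, and to 200.2 to 386 CPM in Trim47-/- and 388 to 396 CPM in wild type untreated. Jchain alone made up 73.7% to 92.9% of this sum in the groups. The 8 erythroid markers summed to 391 to 408 CPM in Trim47-/- and 459 to 470.2 CPM in wild type after 5-FU, and to 168 to 171 CPM in Trim47-/- and 99.2 to 108 CPM in wild type untreated. The 7 dendritic-cell markers, led by H2-Ab1 after 5-FU and by Cd74 untreated, summed to 101 to 113 CPM over both 5-FU groups and 309 to 399 CPM over both untreated groups. Among them Cd209a and Xcr1 were under 1 CPM in every group, Siglech in both 5-FU groups, and Clec9a in all but untreated wild type. Nkg7 made up 93.3% to 97.1% of the sum of the T and NK cell markers, with Cd3d, Cd3e and Cd3g under 1 CPM in every group, and the 6 megakaryocyte markers summed to at most 27.8 CPM. Several of the 9 genes, among them Cd44, Itgb2 and Cxcr4, are also active in maturing myeloid or lymphoid cells, and the part of these shifts in the results below was not tested. In bulk RNA, fewer cells of a type and less RNA per cell cannot be told apart.

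Among the untreated libraries, Trim47-/- cells had less Cxcr4, Itga4, Cd44 and Vcam1 RNA than wild-type cells, and no gene of the 9 was called higher. A gene was called at an adjusted p under 0.05, and these 4 of 9 genes (44.4%) stand beside 33% of all tested genes called in either direction and 15.4% called lower. Only Cxcr4 moved by at least 1.5-fold, a size that 8.41% of all genes reached. The median size of the log2 change was 0.17 over the 9 genes and 0.18 over all tested genes. The libraries of both genotypes lay apart for 7 of the 9 genes, as they did for 47.9% of all genes.

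After 5-FU the genotypes differed in a different pattern: Trim47-/- cells had more Cd44, Itgal and Cxcr4 RNA and less Itga6, Vcam1 and Itga4 RNA than wild-type cells. That is 6 of 9 genes called (66.7%), beside 54.7% of all tested genes, with 3 higher (27.2% of all genes) and 3 lower (27.6%). Cd44 alone moved by at least 1.5-fold, which 20.2% of all genes did. The median size of the log2 change was 0.25 over the 9 genes and 0.31 over all genes, and 8 of the 9 genes had groups that did not overlap, against 61.3% of all genes.

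Between 5-FU and untreated libraries of the Trim47-/- label, Cxcr4 fell and Itgb2, Cd44, Itgal, Selplg, Itgb1 and Itga4 rose. These 7 called genes (77.8%) stand beside 60.5% of all tested genes, with 6 higher (29.6% of all) and 1 lower (30.8% of all). In wild type, Cxcr4 and Cd44 fell and Itga6, Itgb2, Itgb1, Itga4, Selplg and Itgal rose, 8 called genes (88.9%) beside 50.6% of all, with 6 higher (25.2%) and 2 lower (25.4%). Changes of at least 1.5-fold were called for 2 genes in Trim47-/-, Cxcr4 and Itgb2 (26.2% of all genes), and for 4 in wild type, Cxcr4, Itga6, Itgb2 and Cd44 (18.8% of all). Vcam1 was called in neither genotype. Groups that did not overlap were found for 7 genes in Trim47-/- (66.6% of all genes) and for 8 in wild type (58.9% of all genes). Each of these drug comparisons shares its libraries with the genotype comparisons above, so the 4 sets of calls are not separate evidence.

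**Figure D1:**
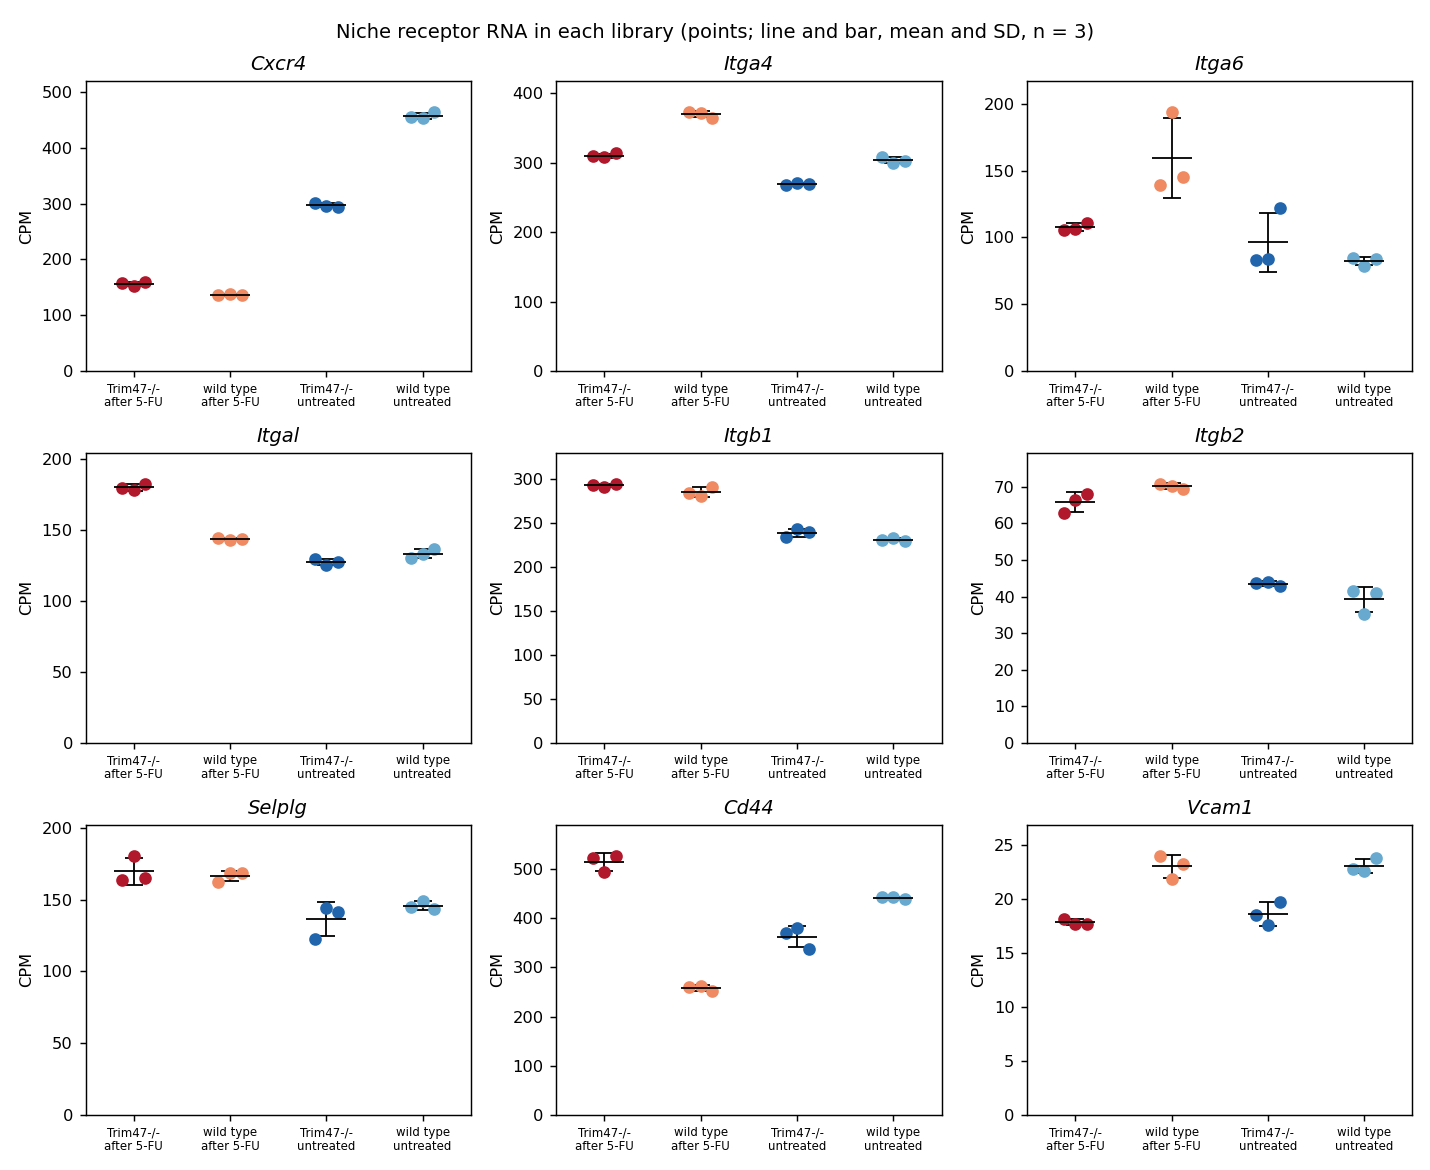
Level of each of the 9 genes in CPM (vertical axes, from 0) in every library of the 4 groups (points), with the mean and SD of each group (n = 3). Cxcr4 stands at 454 to 464 CPM in untreated wild type and at 136 to 160.3 CPM in the libraries after 5-FU, while Cd44 is highest in Trim47-/- after 5-FU.

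Cxcr4 (ENSMUSG00000045382) is a gene at chr1:128588199-128592293 on the minus strand of GRCm38. After 5-FU it had 157, 153 and 160.3 CPM in the Trim47-/- libraries, against 136, 139 and 136 CPM in the wild-type libraries. Untreated, it had 301, 296 and 294 CPM in Trim47-/- and 455, 454 and 464 CPM in wild type. No 2 groups overlapped: untreated wild type was highest, untreated Trim47-/- next, and both 5-FU groups were lower, with Trim47-/- above wild type. In untreated cells the level was 1.54-fold lower in Trim47-/- (log2 -0.62, SE 0.0214, adjusted p = 4.61e-09 in edgeR's quasi-likelihood test), and 10.9% of all tested genes changed more. After 5-FU the sign turned, with a log2 difference of 0.20 (SE 0.0219, adjusted p = 1.47e-05), a size exceeded by 65.7% of genes. The drug lowered Cxcr4 1.89-fold in Trim47-/- (log2 -0.92, SE 0.0217, adjusted p = 2.55e-11). In wild type the level after the drug was 3.35-fold lower (log2 -1.74, SE 0.0221, adjusted p = 1.67e-13), and 4.33% of genes changed more. The difference between those responses, the interaction term, was 0.82 (SE 0.0306, adjusted p = 2.09e-09 in edgeR's test), with a smaller fall in Trim47-/-.

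The alpha subunits each pair with a beta subunit that the set also holds. Itga4 encodes alpha4, which with beta1 forms VLA-4, a receptor for VCAM-1 and fibronectin. It stood at 309, 308 and 313 CPM in Trim47-/- and 373, 371 and 365 CPM in wild type after 5-FU. Untreated libraries had 267, 271 and 269 CPM in Trim47-/- and 308, 299.7 and 302 CPM in wild type. Trim47-/- lay below wild type without overlap in both settings, and the 5-FU libraries lay above the untreated ones of their genotype, while Trim47-/- after 5-FU and untreated wild type met at 308 CPM. The genotype difference was log2 -0.25 after 5-FU (SE 0.0183, adjusted p = 4.63e-07) and -0.17 untreated (SE 0.0183, adjusted p = 3.16e-05) in edgeR's test. With the drug Itga4 rose by log2 0.20 in Trim47-/- (SE 0.0183, adjusted p = 1.96e-06) and by 0.28 in wild type (SE 0.0183, adjusted p = 1.71e-07). The interaction was -0.0806 (SE 0.0258, adjusted p = 0.0202) and was lost with DESeq2's size factors (adjusted p = 0.0501), with 0.00178 to 0.0501 over its alternatives. Without the filter on low counts it was -0.12. Itga4 overlaps Cerkl on the opposite strand, which had 30 to 82 counts per library beside 4248 to 5899 for Itga4.

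Itga6, the alpha6 laminin receptor subunit, was the most uneven of the 9 genes between libraries of a group. After 5-FU it had 106, 106 and 111 CPM in Trim47-/- and 139, 194 and 145 CPM in wild type. Untreated, it had 83.1, 83.8 and 122 CPM in Trim47-/- and 84.6, 78.9 and 83.6 CPM in wild type. A single library stood high in wild type after 5-FU (replicate 2) and in untreated Trim47-/- (replicate 3), and the genotypes overlapped in untreated cells only. After 5-FU Itga6 was lower in Trim47-/- by log2 -0.57 (SE 0.149, adjusted p = 0.00708), while the untreated difference of 0.22 did not pass (SE 0.150, adjusted p = 0.289). Wild-type cells rose by 0.95 with the drug (SE 0.150, adjusted p = 0.000265). In Trim47-/- the change of 0.16 did not pass (SE 0.149, adjusted p = 0.373), but without untreated replicate 3 it was 0.37 and did (adjusted p = 0.0195, the lowest of 0.0195 to 0.755 over its alternatives). The interaction was -0.79 (SE 0.211, adjusted p = 0.00779 in edgeR's test). Itga6 overlaps 4 other gene models, among them Gm13663 and Gm17250, that were not used here.

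Itgal encodes alphaL, which with beta2 forms LFA-1, the receptor for ICAM-1. Its level was 179, 178 and 182 CPM in Trim47-/- and 144, 143 and 144 CPM in wild type after 5-FU. Untreated libraries had 129, 125 and 128 CPM in Trim47-/- and 129.9, 133 and 137 CPM in wild type. Trim47-/- after 5-FU stood above every other group, and the remaining groups lay within 125 to 144 CPM. The genotype difference after 5-FU was log2 0.32 (SE 0.0245, adjusted p = 6.78e-07). Untreated it was -0.06 and did not pass (SE 0.0246, adjusted p = 0.0682), although it did with DESeq2's size factors (adjusted p = 0.0280), without untreated wild-type replicate 1 (0.0429) and without wild-type 5-FU replicate 3 (0.0326), in a range of 0.0280 to 0.256 over its alternatives. The drug raised Itgal by 0.50 in Trim47-/- (SE 0.0245, adjusted p = 1.28e-08) and by 0.11 in wild type (SE 0.0246, adjusted p = 0.00318). The interaction of 0.39 passed (SE 0.0347, adjusted p = 2.63e-06 in edgeR's test).

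The beta subunits moved with the drug more than with the genotype label. Itgb1, the beta1 partner of alpha4 and alpha6, had 293, 291 and 294 CPM in Trim47-/- and 283, 279.96 and 291 CPM in wild type after 5-FU. Untreated, it had 234, 243 and 240.2 CPM in Trim47-/- and 231, 233 and 229.8 CPM in wild type. Every 5-FU library lay above every untreated one, and the genotypes stood within a narrow distance of each other, at log2 0.04 after 5-FU (SE 0.0210, adjusted p = 0.130) and 0.05 untreated (SE 0.0210, adjusted p = 0.105), neither of which passed. Without untreated Trim47-/- replicate 1 the untreated difference was 0.07 and passed (adjusted p = 0.0489, in a range of 0.0489 to 0.416). The rise with the drug was 0.29 in Trim47-/- (SE 0.0210, adjusted p = 2.83e-07) and 0.30 in wild type (SE 0.0211, adjusted p = 3.57e-07), and the interaction of -0.01 (SE 0.0297) did not pass (adjusted p = 0.841 in edgeR's test).

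Itgb2, the beta2 subunit of the leukocyte integrins, had 62.8, 66.5 and 68.1 CPM in Trim47-/- and 70.8, 70.3 and 69.3 CPM in wild type after 5-FU. Untreated libraries had 43.7, 44.0 and 42.9 CPM in Trim47-/- and 41.6, 35.3 and 40.9 CPM in wild type. The 5-FU libraries were again all above the untreated ones, and wild type had both the highest and the lowest libraries. Its rise was log2 0.60 in Trim47-/- (SE 0.0556, adjusted p = 2.74e-06) and 0.84 in wild type (SE 0.0563, adjusted p = 2.56e-07). The genotype differences of -0.09 after 5-FU (SE 0.0551, adjusted p = 0.181) and 0.15 untreated (SE 0.0564, adjusted p = 0.0653) did not pass. Without untreated wild-type replicate 1 the untreated difference was 0.19 and passed (adjusted p = 0.0368, in a range of 0.0368 to 0.234). The interaction of -0.24 passed (SE 0.0788, adjusted p = 0.0224) but not without Trim47-/- 5-FU replicate 1 (-0.21, adjusted p = 0.0531), in a range of 0.0125 to 0.0531.

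Selplg encodes PSGL-1, the main ligand of P-selectin on leukocytes. It had 164, 181 and 165 CPM in Trim47-/- and 162, 169 and 169 CPM in wild type after 5-FU. Untreated, it had 123, 145 and 142 CPM in Trim47-/- and 145, 149 and 143 CPM in wild type. The genotypes overlapped in both settings, whereas the 5-FU libraries of each genotype lay above its untreated ones. Neither genotype difference passed, at log2 0.03 after 5-FU (SE 0.0572, adjusted p = 0.697) and -0.10 untreated (SE 0.0573, adjusted p = 0.231). With the drug Selplg rose by 0.32 in Trim47-/- (SE 0.0572, adjusted p = 0.000509) and by 0.19 in wild type (SE 0.0573, adjusted p = 0.0152). The rise in wild type was lost without untreated wild-type replicate 3 (adjusted p = 0.0502, the highest of 0.00171 to 0.0502), and the interaction of 0.13 did not pass (SE 0.0810, adjusted p = 0.215).

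Cd44 (ENSMUSG00000005087), at chr2:102811141-102901665 on the minus strand of GRCm38, encodes the hyaluronan receptor whose glycoforms also bind E-selectin. It had 522, 494 and 528 CPM in Trim47-/- after 5-FU, against 261, 262 and 251 CPM in wild type after 5-FU. Untreated libraries had 370.3, 380.2 and 338 CPM in Trim47-/- and 444, 443 and 440.0 CPM in wild type. No 2 groups overlapped, and the highest and the lowest groups were those after 5-FU. The level was 1.99-fold higher in Trim47-/- than in wild type after 5-FU (log2 0.996, SE 0.0402, adjusted p = 4.44e-09), and 10.2% of all tested genes differed more. Untreated, it was lower in Trim47-/- by log2 -0.29 (SE 0.0397, adjusted p = 0.000241), a size exceeded by 32.6% of genes. Cd44 rose with the drug in Trim47-/- (0.50, SE 0.0397, adjusted p = 6.43e-07) and fell in wild type (-0.78, SE 0.0401, adjusted p = 2.60e-08). The interaction was 1.28 (SE 0.0564, adjusted p = 8.30e-09 in edgeR's test), the largest of the 9 genes, and 13.2% of all genes had a larger one. In every one of its 16 alternatives the interaction passed, at 1.23 to 1.31. Monocyte and neutrophil marker sums were also highest in Trim47-/- after 5-FU, as given above, and their part in the Cd44 level was not tested.

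Vcam1, an immunoglobulin-type ligand of VLA-4 best known from endothelial, stromal and macrophage cells, was the lowest of the 9 genes. It had 18.1, 17.7 and 17.7 CPM in Trim47-/- and 24.0, 21.9 and 23.2 CPM in wild type after 5-FU. Untreated, it had 18.5, 17.6 and 19.7 CPM in Trim47-/- and 22.8, 22.6 and 23.8 CPM in wild type. All 6 Trim47-/- libraries lay below all 6 wild-type libraries, and 5-FU and untreated libraries overlapped in each genotype. The genotype difference was log2 -0.37 after 5-FU (SE 0.0585, adjusted p = 0.000247) and -0.31 untreated (SE 0.0575, adjusted p = 0.00174) in edgeR's test. The drug changes, -0.06 in Trim47-/- (SE 0.0584, adjusted p = 0.443) and -0.00026 in wild type (SE 0.0575, adjusted p = 0.998), did not pass, nor did the interaction of -0.06 (SE 0.0820, adjusted p = 0.595). The 8 endothelial and stromal markers, led by Pecam1, summed to 182 to 189.6 CPM in Trim47-/- and 227 to 231 CPM in wild type after 5-FU, with Cdh5, Col1a1 and Lepr under 1 CPM in both. In untreated cells that sum was 215 to 217 CPM in Trim47-/- and 201.2 to 212 CPM in wild type. Within it, untreated Trim47-/- had lower means than untreated wild type for Pecam1 (103 against 119 CPM) and Cdh5 (0.768 against 1.08 CPM). Means were higher for Pdgfrb (89.1 against 72.3 CPM), Emcn (18.0 against 11.4 CPM), Kdr (1.94 against 1.18 CPM) and Plvap (2.68 against 2.28 CPM). Of the 7 markers tested, 3 were called higher and 1 lower in untreated Trim47-/-, beside 33% of all tested genes. After 5-FU none was higher and 5 were lower, beside 54.7% of all tested genes. The monocyte and macrophage sum given above was higher in Trim47-/- than in wild type after 5-FU and lower untreated, and the part of these markers' cells in the Vcam1 level was not tested. Vcam1 overlaps the antisense model Gm43109, which was not used here.

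**Figure D2:**
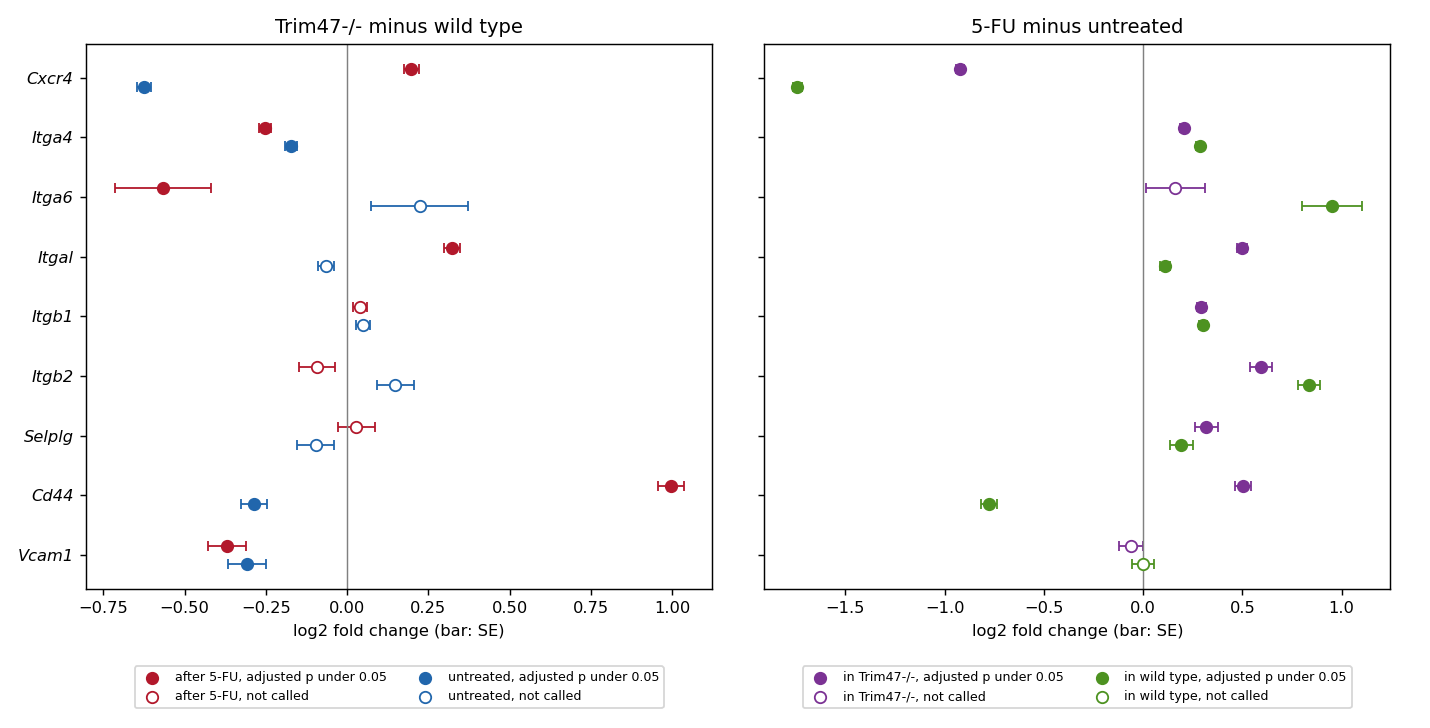
Log2 fold changes (horizontal axes) of the 9 genes with their SE, Trim47-/- over wild type on the left and 5-FU over untreated on the right; filled points have an adjusted p under 0.05. Among the genes called in both settings of the left panel, Cxcr4 and Cd44 lie on opposite sides of 0 at rest and after 5-FU. Itga6, Itgal, Itgb2 and Selplg also change sides there, but were not called in both settings. In the right panel Cd44 lies on opposite sides of 0 between the genotypes.

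Across the whole set, the difference between the drug responses of the genotypes passed for 6 of the 9 genes (66.7%), beside 54.9% of all tested genes. Cd44, Cxcr4 and Itgal had a positive interaction (26.4% of all genes) and Itga6, Itgb2 and Itga4 a negative one (28.5%). It reached 1.5-fold for Cd44, Cxcr4 and Itga6, as it did for 30.5% of all genes. The median size of the interaction was 0.24 over the 9 genes and 0.43 over all genes. Cxcr4, Itga4 and Cd44 were called in all 4 of the other comparisons, Itgal in 3 and the remaining 5 genes in 2 each. Single comparisons called 33% to 60.5% of all tested genes, and the share of all genes called this often was not counted.

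Levels of different genes were compared per length, as CPM per kilobase of the union of annotated exons. In Trim47-/- after 5-FU the order ran from Cxcr4 at 86.7 over Cd44 at 76.0, Itgb1 at 71.7, Selplg at 39.8, Itgal at 27.4, Itga4 at 22.2, Itgb2 at 21.6 and Itga6 at 11.9 to Vcam1 at 2.01, and only Itga4 and Itgb2 overlapped. Wild type after 5-FU had Cxcr4 at 75.6, Itgb1 at 69.8, Selplg at 39.0 and Cd44 at 38.1, whose libraries overlapped with those of Selplg, then Itga4 at 26.4, Itgb2 at 22.98, Itgal at 21.9, Itga6 at 17.7 and Vcam1 at 2.60. Cd44 thus held the second place in Trim47-/- and the fourth in wild type. In untreated Trim47-/- Cxcr4 stood at 164, Itgb1 at 58.5, Cd44 at 53.6, Selplg at 31.9, Itgal at 19.4 and Itga4 at 19.3, which overlapped, Itgb2 at 14.3, Itga6 at 10.7 and Vcam1 at 2.10. Untreated wild type had Cxcr4 at 253, Cd44 at 65.3, Itgb1 at 56.6, Selplg at 34.1, Itga4 at 21.7, Itgal at 20.3, Itgb2 at 12.9, Itga6 at 9.13 and Vcam1 at 2.60, with no neighbours overlapping. Cxcr4 was the most abundant and Vcam1 the least abundant RNA per length in every group. The deposited FPKM moved 12 places in these orders, since for 8 of the 9 genes the authors' length added overlapping exons and came to 1.09 (Vcam1) to 1.85 (Cd44) times the exon union. With it Cd44 (40.8 FPKM) stood below Itgb1 (51.3 FPKM) in Trim47-/- after 5-FU, and Cxcr4 (52.8 FPKM) overlapped with Itgb1 (52.6 FPKM) in wild type after 5-FU.

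**Figure D3:**
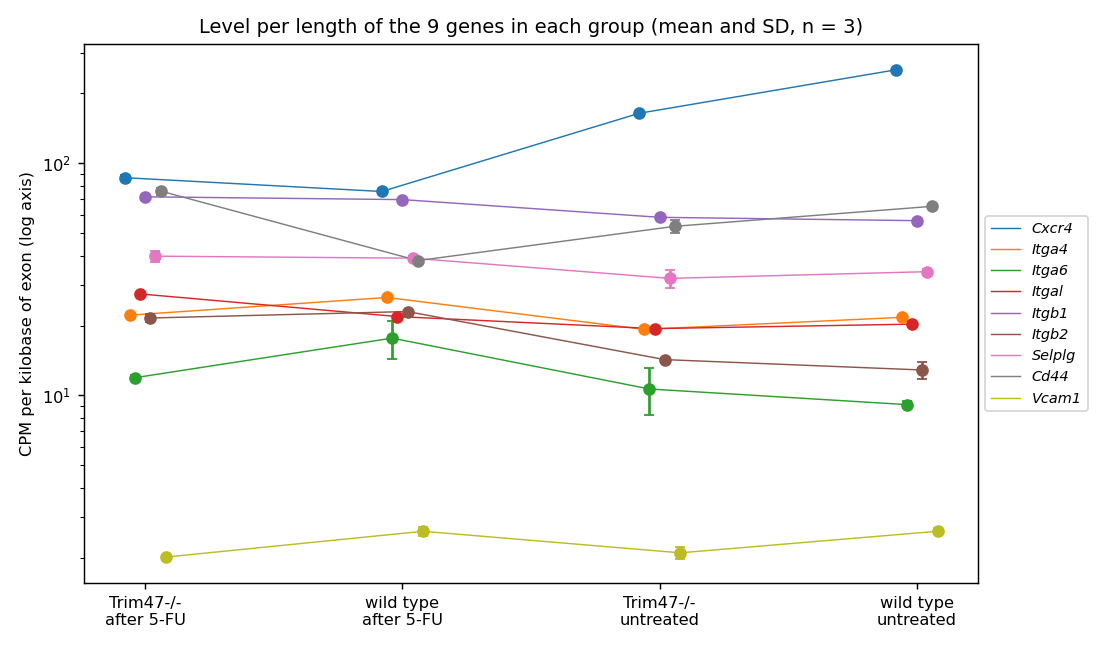
Mean level of each gene per kilobase of exon (vertical log axis, CPM per kilobase) with its SD in the 4 groups (n = 3 each). Cxcr4 is highest and Vcam1 lowest throughout, and Cd44 changes its place relative to Itgb1 and Selplg; lines only join the points of a gene.

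The RNA ratio of the subunits of an integrin pair, per kilobase of exon, shows how unequally partners moved. Itga4 over Itgb1 (VLA-4) was 0.309 ± 0.00157 in Trim47-/- and 0.379 ± 0.0113 in wild type after 5-FU, and 0.329 ± 0.00415 in Trim47-/- and 0.383 ± 0.00738 in wild type untreated (SD, n = 3 each). Every Trim47-/- library lay below every wild-type library, and the wild-type groups overlapped each other. Itgal over Itgb2 (LFA-1) was 1.27 ± 0.0473 in Trim47-/- and 0.952 ± 0.0106 in wild type after 5-FU. Untreated, it was 1.36 ± 0.0312 in Trim47-/- and 1.58 ± 0.151 in wild type, so the order of the genotypes was opposite in the untreated libraries. Itga6 over Itgb1 was 0.166 ± 0.00383 in Trim47-/- and 0.253 ± 0.0516 in wild type after 5-FU, against 0.182 ± 0.0410 in Trim47-/- and 0.161 ± 0.00704 in wild type untreated, and it carried the uneven Itga6 libraries. Cd44 over Cxcr4 was 0.876 ± 0.0141 in Trim47-/- and 0.504 ± 0.00978 in wild type after 5-FU, and 0.326 ± 0.0183 in Trim47-/- and 0.258 ± 0.00429 in wild type untreated. No 2 groups overlapped in that ratio, which was higher in Trim47-/- in both settings. These ratios are of RNA and give no measure of receptor pairs at the surface, and they were not tested.

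**Figure D4:**
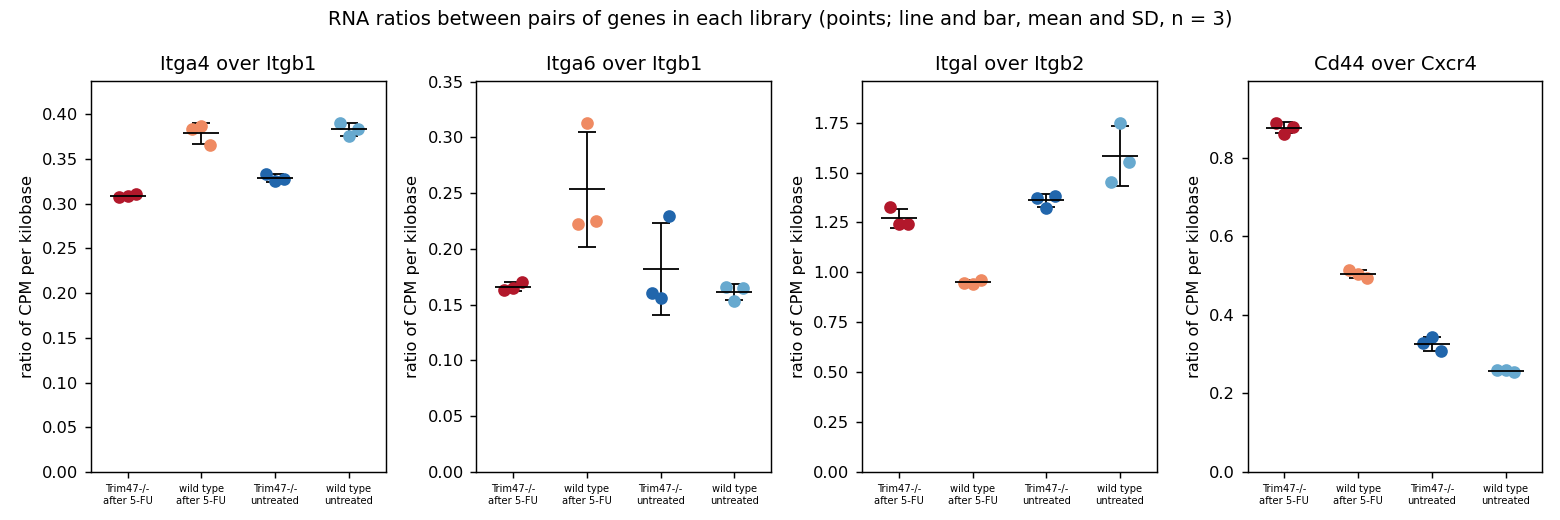
Ratio of CPM per kilobase between 2 genes (vertical axes, from 0) in every library (points), with the mean and SD of each group (n = 3). Itga4 over Itgb1 is lower in every Trim47-/- library than in every wild-type one, and Cd44 over Cxcr4 is highest, at 0.876, in Trim47-/- after 5-FU.

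The wider homing and adhesion pathway was described with 5 lists of 102 other genes, of which 100 were in the table and 94 passed the filter. Itga7, Itga8, Itgae, Madcam1, Cdh2 and Fermt2 were under the filter. After 5-FU, 24 of the 94 were higher and 32 lower in Trim47-/- (59.6%, beside 54.7% of all tested genes), and untreated 25 were higher and 20 lower (47.9%, beside 33%). The drug raised 32 and lowered 33 in Trim47-/- (69.1%, beside 60.5%), and raised 39 and lowered 26 in wild type (69.1%, beside 50.6%). For the interaction 20 were positive and 34 negative (57.4%, beside 54.9%), with a median of -0.07 over the lists and -0.03 over all genes.

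Ligands of the 9 receptors were among the genes that differed. Icam1, the ligand of LFA-1, was at 216 ± 5.74 CPM in Trim47-/- and 105 ± 2.92 CPM in wild type after 5-FU (log2 1.04, SE 0.0263, adjusted p = 1.05e-10). In untreated cells it was at 297 ± 2.53 CPM in Trim47-/- and 516 ± 7.65 CPM in wild type (-0.80, SE 0.0255, adjusted p = 3.17e-09). Its levels thus had the order of Cxcr4 over the 4 groups. Selp, the P-selectin gene, was lower in Trim47-/- after 5-FU, at 92.3 ± 2.60 CPM against 157 ± 1.81 CPM in wild type (-0.76, SE 0.0409, adjusted p = 4.15e-08), and untreated, at 23.3 ± 1.30 CPM in Trim47-/- against 31.5 ± 1.02 CPM in wild type (-0.43, SE 0.0445, adjusted p = 2.49e-05). It rose with the drug by 1.98 in Trim47-/- and 2.31 in wild type. Esam, an endothelial adhesion molecule that stem cells also carry, was at 13.8 ± 1.36 CPM in Trim47-/- and 41.7 ± 1.71 CPM in wild type after 5-FU (-1.59, SE 0.0774, adjusted p = 1.95e-08 in edgeR's test). Of the 20 tested ligands and adhesion molecules, 6 were higher and 9 lower in Trim47-/- after 5-FU (54.7% of all genes were called). Untreated, 8 were higher and 6 lower (33% of all genes were called).

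Of the 16 other integrin subunits tested, 4 were higher and 4 lower in Trim47-/- after 5-FU (54.7% of all genes were called). Untreated, 2 were higher and 5 lower (33% of all genes were called). Itga5, the fibronectin receptor subunit that also pairs with beta1, was at 154 ± 2.49 CPM in Trim47-/- and 72.3 ± 2.22 CPM in wild type after 5-FU (log2 1.09, SE 0.0314, adjusted p = 2.99e-10). Untreated, Itga5 was at 49.6 ± 0.691 CPM in Trim47-/- and 68.7 ± 1.55 CPM in wild type (-0.47, SE 0.0318, adjusted p = 9.00e-07). Itga3, a laminin receptor subunit, was at 27.8 ± 0.311 CPM in Trim47-/- and 13.9 ± 1.01 CPM in wild type after 5-FU, and at 20.97 ± 0.763 CPM in Trim47-/- and 51.5 ± 2.13 CPM in wild type untreated. Both had interactions that passed, 1.56 for Itga5 (SE 0.0447, adjusted p = 2.34e-10) and 2.29 for Itga3 (SE 0.0831, adjusted p = 1.75e-09). Itga2b, the platelet integrin subunit that early stem cells also carry, rose with the drug by 1.22 in Trim47-/- and 1.30 in wild type.

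Genes that activate integrins or relay their signals were called with small differences. Among 23 tested, 5 were higher and 8 lower in Trim47-/- after 5-FU (54.7% of all genes were called). Untreated, 5 were higher and 2 lower (33% of all genes were called), and no call in either setting reached 2-fold. Rap1b, a small GTPase of integrin activation, was at 455 ± 5.90 CPM in Trim47-/- and 296 ± 5.73 CPM in wild type after 5-FU (log2 0.62, SE 0.0332, adjusted p = 4.23e-08). In untreated cells Rap1b was lower in Trim47-/-, at 311 ± 16.8 CPM against 351 ± 3.32 CPM in wild type (-0.18, SE 0.0331, adjusted p = 0.00182 in edgeR's test). Tln1, the talin gene whose product binds the beta subunit tail, was at 983 ± 7.64 CPM in Trim47-/- and 1054 ± 7.25 CPM in wild type after 5-FU (-0.10, SE 0.0121, adjusted p = 2.94e-05). In untreated cells Tln1 was higher in Trim47-/-, at 1076 ± 2.12 CPM against 973 ± 5.83 CPM in wild type (0.14, SE 0.0121, adjusted p = 4.90e-06 in edgeR's test). Of the 11 enzymes that build selectin ligands on PSGL-1 and CD44, 2 were higher and 4 lower in Trim47-/- after 5-FU. Untreated, 4 were higher and 1 lower, beside the same shares of all genes. Fut7, the fucosyltransferase of selectin ligands, was at 23.4 ± 0.831 CPM in Trim47-/- and 33.7 ± 1.79 CPM in wild type after 5-FU (-0.53, SE 0.0687, adjusted p = 5.65e-05). The untreated Fut7 difference had the opposite sign, at 28.9 ± 2.08 CPM in Trim47-/- and 23.8 ± 1.45 CPM in wild type (0.28, SE 0.0682, adjusted p = 0.00799 in edgeR's test). B4galt1, a galactosyltransferase, was at 185 ± 0.908 CPM in Trim47-/- and 115 ± 2.06 CPM in wild type after 5-FU (0.68, SE 0.0307, adjusted p = 9.70e-09 in edgeR's test). Its untreated levels were 104 ± 3.17 CPM in Trim47-/- and 111 ± 3.47 CPM in wild type.

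Among 24 receptors and signalling partners of CXCR4 and of egress from marrow, 7 were higher and 7 lower in Trim47-/- after 5-FU. Untreated, 6 were higher and 6 lower. Of all tested genes, 54.7% were called after 5-FU and 33% untreated. Gna13, a G protein alpha subunit gene, was at 439 ± 8.15 CPM in Trim47-/- and 297 ± 1.79 CPM in wild type after 5-FU, and at 295 ± 2.24 CPM in Trim47-/- and 392 ± 4.83 CPM in wild type untreated (interaction 0.97, SE 0.0263, adjusted p = 1.53e-10). Rgs18, a regulator of G protein signalling, was at 52.8 ± 1.49 CPM in Trim47-/- and 77.9 ± 1.69 CPM in wild type after 5-FU (log2 -0.56, SE 0.0338, adjusted p = 1.12e-07). The untreated Rgs18 difference had the opposite sign, at 82.6 ± 0.657 CPM in Trim47-/- and 65.7 ± 1.86 CPM in wild type (0.33, SE 0.0332, adjusted p = 2.12e-05 in edgeR's test). Ptger4, a prostaglandin E receptor gene, fell with the drug by 1.08 in Trim47-/- and by 0.75 in wild type on the log2 scale.

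**Figure D5:**
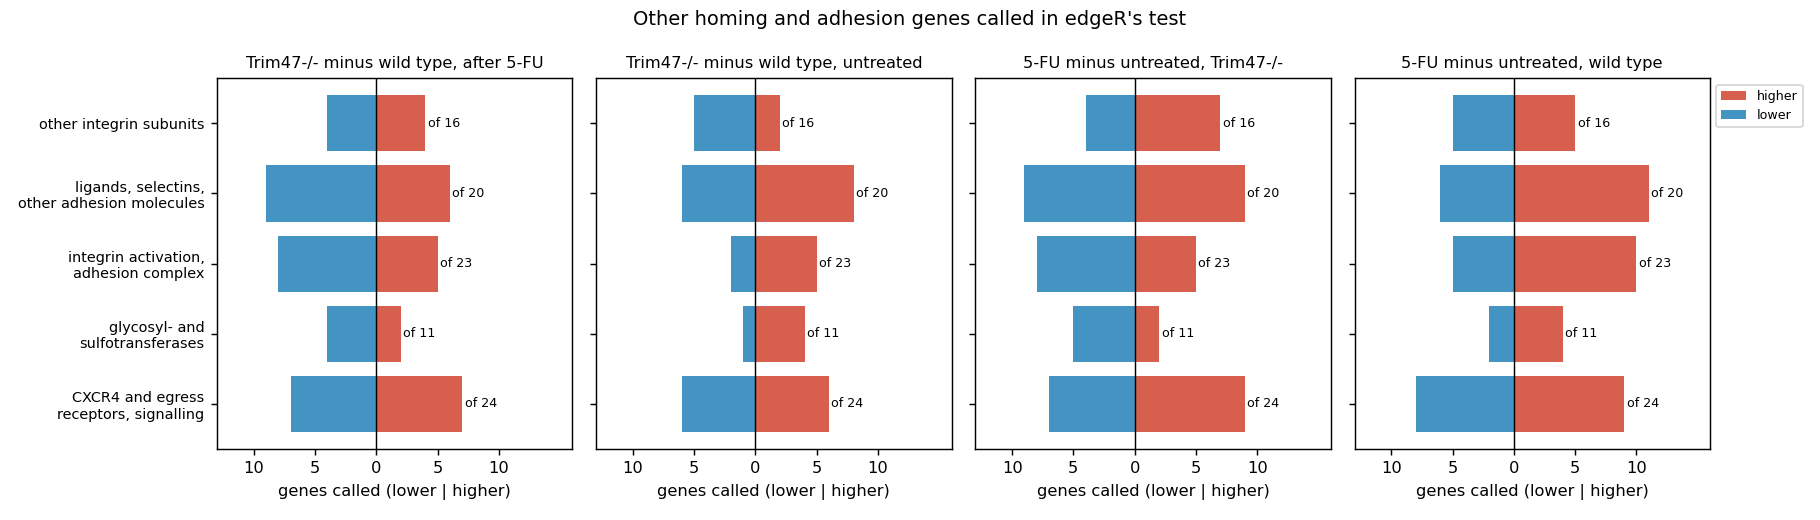
Number of genes called higher (right of 0) or lower (left of 0) at an adjusted p under 0.05 in each of 5 lists of other homing and adhesion genes, for the 4 comparisons; the number tested stands beside each bar. Both directions occur in every list in each comparison. Among the 20 ligands and adhesion molecules tested, 6 are higher and 9 lower in Trim47-/- after 5-FU (54.7% of all genes are called).

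Genes whose level followed that of a member most closely were named by Pearson's r of log2 CPM over the 12 libraries. Candidates were 9298 genes that averaged 10 CPM or more, with gene models named Gm or Rik left out. The libraries share 4 group means, so r mostly reflects those, and it is given as a description. Ddit3 (r = 0.998) and Tagap (r = 0.996) were most like Cxcr4. Ddit3, a stress-induced transcription factor, was at 47.5 CPM in Trim47-/- and 39.9 CPM in wild type after 5-FU, and at 108 CPM in Trim47-/- and 196 CPM in wild type untreated. Rsl1d1 (r = 0.993) and Slco4a1 (r = 0.989) were most like Cd44, with Slco4a1 at 53.2 CPM in Trim47-/- and 27.4 CPM in wild type after 5-FU, and at 36.7 CPM in Trim47-/- and 44.8 CPM in wild type untreated. Nearest to Itga4 were Snap23 (r = 0.982) and Pecam1 (r = 0.964), and nearest to Itgal Polr2e (r = 0.995) and Cox5b-ps (r = 0.994). For Itgb1 they were Anxa5 (r = 0.990) and Lipg (r = 0.989), and for Itgb2 Tram1 (r = 0.988) and Hectd3 (r = 0.986). Itga6, Selplg and Vcam1 had looser neighbours, led by Itfg1 (r = 0.931), Shkbp1 (r = 0.944) and Cdk17 (r = 0.934).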

How the data were processed

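Paired-end sequencing of stranded poly-A libraries on an Illumina NovaSeq is described in the labels' protocols. Groups and replicate numbers came from the sample titles. The deposited table holds a whole-number count per gene and library, not normalised, and FPKM values, per the file headers. CASAVA 1.8, HISAT2, StringTie, edgeR and the build GRCm38 are named in the submitters' processing notes. Which tool counted reads, with which strand setting and annotation release, is not given in the sources used here. The deposited FPKM followed from the counts with 1 length per gene (largest deviation 0.00108% over 11212 genes) and was used only for the order of levels.

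The tests used edgeR 4.0.16 (R 4.3.3): TMM scaling, edgeR's default filter, 1 fit of all 12 libraries with 1 mean per group, the quasi-likelihood test (2-sided) and Benjamini-Hochberg adjustment over 16319 genes. Fold changes are Trim47-/- over wild type or 5-FU over untreated, and SE is the log2 change over the root of F. Gene coordinates and exons are those of GENCODE M21 (GRCm38), identical to the deposited ones for all 9 genes. Promoter windows are RefSeq's, matched by symbol for 4 of the 9. The labels state no pairing, so no block was used. Same-numbered libraries deviated from their group means with r = -0.21 to 0.21, above 0.1 in 5 of 18 pairs.

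The 9 genes and all lists were chosen with earlier results of these data known, and 1 list of other genes is not reported here. In each other list, up to 3 called genes with the smallest p could be named if they averaged 10 CPM or more in the compared libraries, and for each of the 9 the 2 genes with the highest r. Alternatives were DESeq2's size factors, the test of DESeq2 1.42.0, no filter, the replicate number as a block, only the 6 libraries compared, and each library left out. The comparison with FPKM was added after seeing the data. The procedure was also run on simulated counts with changes of at least 1.5-fold put into a single group. Smaller changes, such as many reported here, were not simulated, and the outcome is not given here. Plots were drawn with matplotlib 3.10.9.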

Additional observations from a re-analysis of the deposited data

Results flagged for a closer look

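In edgeR's test of the interaction, the 5-FU response differed between the genotypes for 6 of 9 genes (66.7%), beside 54.9% of all tested genes. On the log2 scale, as the change in Trim47-/- minus that in wild type, it was 1.28 for Cd44 and 0.82 for Cxcr4. It was 0.39 for Itgal, -0.79 for Itga6, -0.24 for Itgb2 and -0.0806 for Itga4. Cd44 rose in Trim47-/- and fell in wild type, with all 3 libraries of each 5-FU group on their own side of the untreated group of that genotype.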

How the results depend on the processing

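Over 17 alternatives, called genes of the 9 numbered 6 to 6 for Trim47-/- against wild type after 5-FU and 4 to 6 untreated, with 6 called without untreated wild-type replicate 1 (Itgal and Itgb2 joined). They numbered 7 to 8 for 5-FU in Trim47-/-, 7 to 8 in wild type, and 5 to 6 for the interaction (16 alternatives). Over all genes the counts were 8148 to 8934, 4551 to 5436, 9177 to 9914, 7522 to 8381 and 8305 to 8991 in the same order. With the replicate number as a block 6, 4, 7, 8 and 6 of the 9 were called, so the block changed no count; same-numbered libraries deviated from their group means with r = -0.21 to 0.21 over 18 pairs, and 5 pairs exceeded 0.1. Signs turned only for values that passed nowhere. Selplg between genotypes after 5-FU was -0.00386 without the filter and -0.0147 to 0.0566 with single libraries left out, the lowest without Trim47-/- 5-FU replicate 2. Vcam1 with 5-FU in wild type was 0.00696 without the filter and -0.0281 to 0.0386 with single libraries left out. The interaction of Itgb1 was 0.00616 with DESeq2's size factors and -0.0262 to 0.00980 with single libraries left out. The causes were not tested. Counts of 244 to 7742 per library stand behind the 9 genes, with the fewest, 244 to 404, for Vcam1, which has the largest relative counting error.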
